A study of Caenorhabditis elegans with 7 samples.

Results

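The regions described here are the stretches of the Caenorhabditis elegans X chromosome that were called as bound by the transcription factor PHA-4 in young adult worms. They are every peak with X as its sequence name in the authors' combined peak list, which gives 458 peaks of 2436 in all. X peaks of the replicate 1 list (96 of 418) and of the replicate 2 list (361 of 1834) served to see which of the 458 recurred in a single replicate. The autosomes, chromosomes I to V, held the other 1978 combined peaks, 322 replicate 1 peaks and 1473 replicate 2 peaks, and serve as background. All positions are in WormBase WS190 coordinates.

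PHA-4 is the worm's FoxA protein, a forkhead factor of the class called pioneer factors, and it specifies the pharynx during embryogenesis. It continues to act in the pharynx, gut and gonad after hatching, and it is needed in adults for the long life that food limitation gives. Hermaphrodites carry a pair of X chromosomes where males carry a single one, and in somatic cells of hermaphrodites a condensin-like complex lowers transcription from both. The X chromosome is also largely silent in the germ line, and it lacks the sharp division into gene-dense centres and repeat-rich arms that the worm's autosomes show.

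The assay was chromatin immunoprecipitation followed by sequencing (ChIP-seq), with an affinity-purified goat antibody against GFP. The ChIP group of replicate 1 (2 samples), the ChIP group of replicate 2 (2 samples) and the input group of replicate 2 (3 samples) all came from strain OP37, young adult hermaphrodites grown at 20 °C and fixed with 2% formaldehyde. Input is fragmented chromatin kept aside before the antibody step. All 7 samples carried the mutation unc-119(ed3) on III and the transgene wgIs37, in which unc-119(+) rescues that mutation and PHA-4 is made as the fusion pha-4::TY1::EGFP::3xFLAG. The transgene was delivered by bombardment, so tagged PHA-4 was present beside the worm's own gene, and no group lacked the tag. The sources do not say where wgIs37 is integrated. Whole worms were fixed, so binding in a few cells and weak binding in many cells cannot be told apart. The design has 1 stage and 1 genotype, and the comparisons below are between X and each autosome within a list, and between the lists.

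Each peak carries a q-value from the authors' peak calling. Strength below means −log10 of that q-value, so that a q of 0.01, the loosest in the lists, is a strength of 2. Strength depends on read depth and on the width of a peak, and depth is unknown, so strengths and ranks were compared within a list. With 1 list per replicate and 1 X against 5 autosomes no test over samples exists. X is therefore set against the range of the 5 autosomes, and intervals on shares are 95% exact (Clopper-Pearson) binomial intervals, which cover counting error only.

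PHA-4 peaks were spread over X about as densely as over the autosomes. In the combined list there were 25.9 peaks per Mb on X and 24.0 over the autosomes as a whole, with the single autosomes between 16.6 (V) and 29.6 (III). X peaks covered 394 kb, or 2.23% of the chromosome up to its last peak, against 2.12% of the autosomes. The replicate 2 list gave a like picture, with 20.4 peaks per Mb on X and 13.0 to 23.7 on the autosomes. In the shorter replicate 1 list X had 5.42 peaks per Mb, inside the autosomal range of 1.73 (I) to 5.48 (III), but the part of the chromosome covered, 0.471%, lay above that of each autosome, the highest of which was 0.461% (II).

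The strongest X regions were broad, and all 20 of the X peaks with the smallest q-values in the combined list overlapped peaks of both replicate lists. Their ranks in the combined list reached 122. Replicate 2 likewise held all autosomal combined peaks in ranks 1 to 250. Replicate 1 held 92.9% of autosomal peaks in ranks 1 to 50, 69.6% in ranks 51 to 100 and 47.3% in ranks 101 to 250. The 20 X regions had q-values of 1.47e-118 to 2.29e-18 and widths of 624 to 5507 bp with a median of 2785 bp. Together they made up 60.7 kb, or 15.4% of all bases covered by X peaks. They were spread along the chromosome, with 6, 7 and 7 in the left, central and right of 3 equal parts. The first is X 16929344 to 16932030 (2687 bp), with a combined q of 1.47e-118, a replicate 1 q of 1.58e-19 and a replicate 2 q of 3.58e-97. The second is X 1503355 to 1505214 (1860 bp), with a combined q of 7.97e-116, a replicate 1 q of 3.63e-16 and a replicate 2 q of 1.03e-100. These 2 regions lie near opposite ends of X, and each was called in both replicate lists, of which the combined list is not independent. At X 16929344 replicate 1 ran from X 16929395 to 16931980 (2586 bp) and replicate 2 from X 16929035 to 16932027 (2993 bp). At X 1503355 the borders lay closer, and replicate 1 spanned 1657 bp and replicate 2 spanned 1848 bp.

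Below this pair, strength dropped steeply along the list. The third region, X 6844040 to 6846377 (2338 bp), had a combined q of 6.25e-58, a replicate 1 q of 1.66e-13 and a replicate 2 q of 1.42e-40. The fourth, X 16940118 to 16944661 (4544 bp), had a combined q of 1.65e-53 and a replicate 2 q of 2.71e-47, while replicate 1 called only 848 bp at its right edge with a q of 9.35e-05. Replicate 1 thus held a small part of the interval that the other lists gave as a single peak. Between it and the strongest X peak stand small peaks of 352 and 329 bp that replicate 2 alone held, and the last of these ends 5.80 kb before it.

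**Figure D1:**
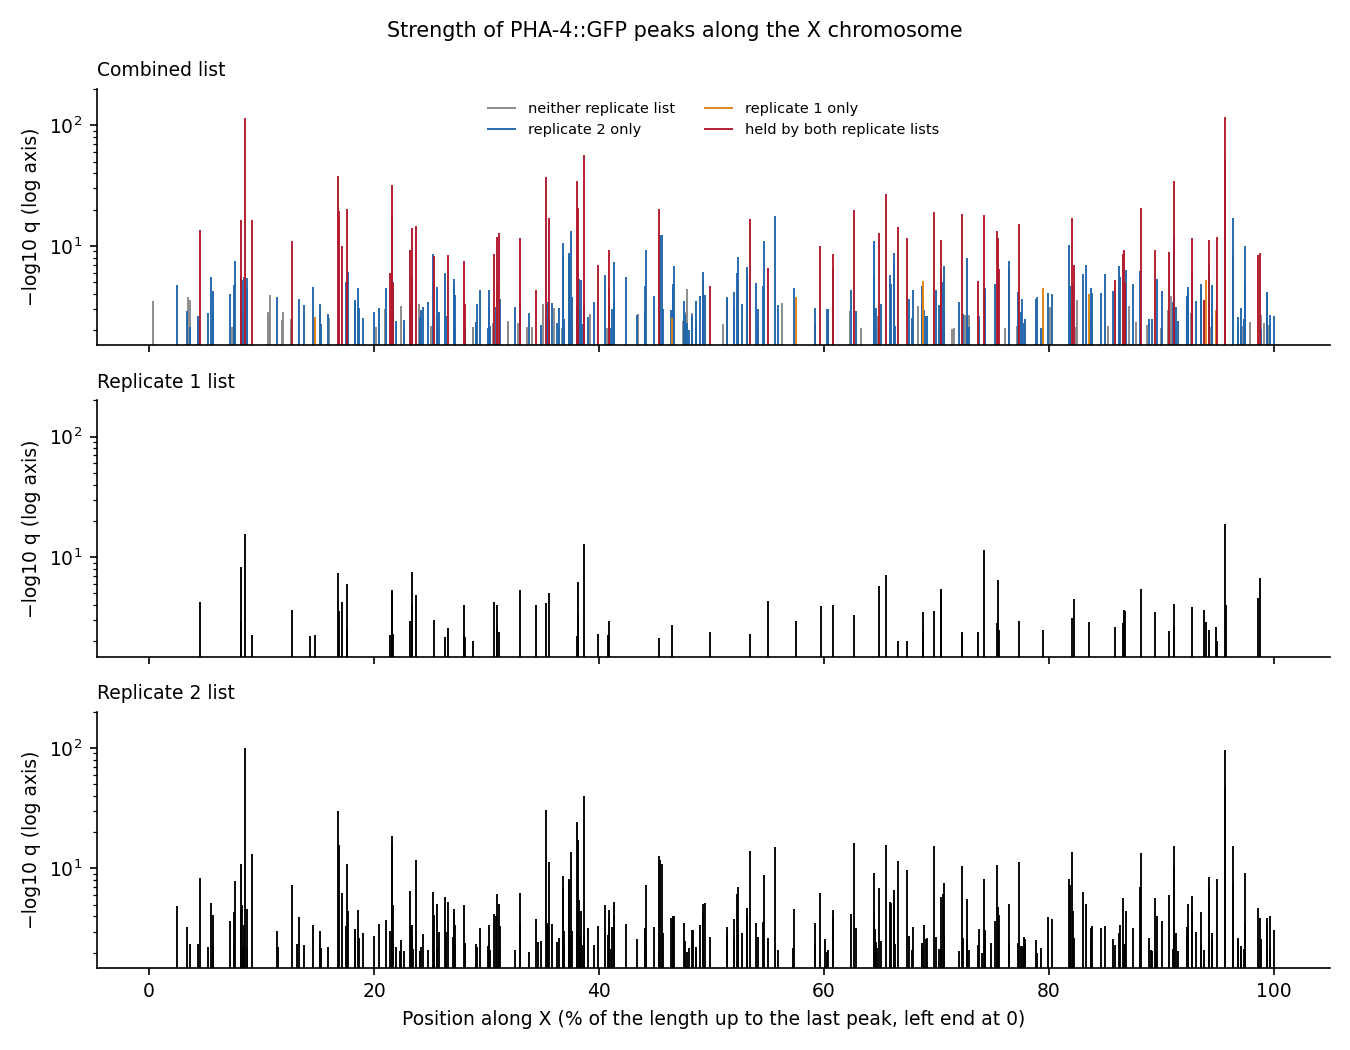
Strength (−log10 q, log axis) of every X peak against its position along X in percent of the length up to the last peak, for the combined, replicate 1 and replicate 2 lists from top to bottom. In the combined panel colour gives the replicate lists that hold the peak. The tallest lines, at 8.50% and 95.6% of the length, stand in all 3 panels, and peaks that neither replicate list holds (grey) reach a strength of at most 4.35.

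The next regions were wide in the combined and replicate 2 lists and narrow in replicate 1. At X 2968255 to 2972994 the combined peak spanned 4740 bp (q = 1.92e-38), the replicate 1 peak 1087 bp (q = 4.31e-08) and the replicate 2 peak 4331 bp (q = 1.26e-30). At X 6252069 to 6256053 the combined peak spanned 3985 bp (q = 2.71e-38), the replicate 1 peak 992 bp (q = 7.40e-05) and the replicate 2 peak 3981 bp (q = 3.10e-31). At X 8017614 to 8022166 the combined peak spanned 4553 bp (q = 5.20e-21), the replicate 1 peak 427 bp (q = 0.00699) and the replicate 2 peak 4413 bp (q = 1.72e-13). Over the 20 regions the median width was 1074.5 bp in replicate 1 and 2464 bp in replicate 2, where the strongest overlapping peak was taken for each region. Fewer reads can shorten a called peak, and depth is unknown, so width differences between the lists and a difference in depth cannot be told apart.

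Some strong regions did not follow that pattern. X 13143135 to 13145657 (2523 bp, combined q = 9.51e-19) had a smaller q in replicate 1 (3.42e-12, rank 25) than in replicate 2 (7.55e-09, rank 226). Among the 20 it is the one region with its smaller replicate q in the shorter list. Depth is unknown, so these q-values do not show stronger binding there in replicate 1. X 11603161 to 11606528 (3368 bp, combined q = 1.43e-27) was broad in both, with 2854 bp in replicate 1 (q = 7.09e-08) and 4026 bp in replicate 2 (q = 2.79e-16). X 11093821 to 11094444 was the narrowest of the 20 at 624 bp, with a combined q of 1.99e-20, and kept that size in replicate 1 (X 11093859 to 11094357, q = 0.000455) and replicate 2 (X 11093793 to 11094431, q = 7.29e-17). X 2996489 to 2997493 (1005 bp, combined q = 2.52e-20) and X 12362715 to 12363653 (939 bp, combined q = 6.31e-20) were the other compact ones.

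The remaining regions of the 20 were broad, lay in or near groups of peaks, or were divided in a replicate. X 16128092 to 16131681 (3590 bp, combined q = 2.77e-35) was divided into 2 peaks in each replicate list. X 6740832 to 6744929 (4098 bp, q = 3.07e-35), X 3817120 to 3822626 (5507 bp, q = 7.20e-33) and X 12792507 to 12795367 (2861 bp, q = 4.03e-19) were divided in replicate 1 and single in replicate 2. The others were X 6748807 to 6750648 (1842 bp, q = 2.77e-21), X 15606137 to 15611465 (5329 bp, q = 3.54e-21), X 3114223 to 3116931 (2709 bp, q = 7.41e-21) and X 3822986 to 3824573 (1588 bp, q = 2.29e-18). Division was uncommon on the chromosome as a whole: 5 of the 458 combined X peaks held 2 replicate 1 peaks, and 5 held 2 replicate 2 peaks. Of the 1978 autosomal peaks, 21 were divided in replicate 1 and 40 in replicate 2.

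X made up 18.8% of all combined peaks, and the intervals of its share of the 100 and of the 250 strongest both held that value. X gave 12 of the 100 strongest combined peaks, fewer than each autosome (15 to 21), with an interval of 6.36% to 20.0%. It gave 50 of the 250 strongest, more than each autosome (32 to 47), with an interval of 15.2% to 25.5%. The low place among the first 100 was not seen in the replicate lists, where X gave 20 of 100 in replicate 1 (autosomes 7 to 22) and 19 of 100 in replicate 2 (autosomes 13 to 22). In strength as a whole X lay among the autosomes. The median strength in the combined list was 3.46 on X and 3.29 (I) to 3.54 (II) on the autosomes, and 54 X peaks (11.8%) had a strength over 10, against 10.7% of autosomal peaks. In replicate 1 the X median of 3.43 lay above all 5 autosomes (2.98 to 3.23), and in replicate 2 the X median of 3.26 lay among them (3.19 to 3.42).

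The median width of X peaks lay above that of each autosome in all 3 lists. The median width of combined peaks was 550 bp on X and 467 (IV) to 519 bp (V) on the autosomes. In replicate 1 it was 721 bp on X and 573.5 (II) to 699 bp (I) on the autosomes, and in replicate 2 it was 535 bp on X and 454 (IV) to 500 bp (II) on the autosomes. The lower quartile was likewise highest on X in each list, at 368 bp in the combined list, 461 bp in replicate 1 and 370 bp in replicate 2, with the highest autosome at 365, 404 and 349 bp. An interval for counting error on the combined X median ran from 506 to 604 bp and held the median of V (519 bp). The combined medians therefore do not set X apart from V. In replicate 1 the nearest median, that of I (699 bp), rests on 26 peaks. These 3 lists share samples and are not independent, and no test over samples was possible.

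Peaks under 300 bp, though not the very narrowest, made up a smaller share on X than on each autosome, and very wide peaks were not more common on it. Those under 300 bp made up 10.7% of combined X peaks against 12.6% (V) to 19.3% (IV) on the autosomes, and X was also lowest in replicate 1 (0%, autosomes 3.85% to 12.2%) and replicate 2 (10.2%, autosomes 13.7% to 18.6%). From 50 bp up to 200 bp there were 6 X peaks (1.31%) against 70 autosomal peaks (3.54%). Under 50 bp the order was the other way, with 8 X peaks (1.75%) against 26 autosomal peaks (1.31%), and under 200 bp the combined X share, 3.06%, lay inside the autosomal range (2.30% on V to 7.05% on IV). Nor was X the wider at the upper end. The upper quartile of combined X peaks, 935 bp, lay inside the autosomal range (815 to 1061 bp), and the widest X peak, 5507 bp, was narrower than the widest peak of each autosome (6549 bp on III to 20049 bp on V). Peaks over 5000 bp numbered 2 of 458 on X (0.437%) and 36 of 1978 on the autosomes (1.82%). In replicate 2 the widest X peak, 4766 bp, lay inside the autosomal range, above III (3734 bp).

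**Figure D2:**
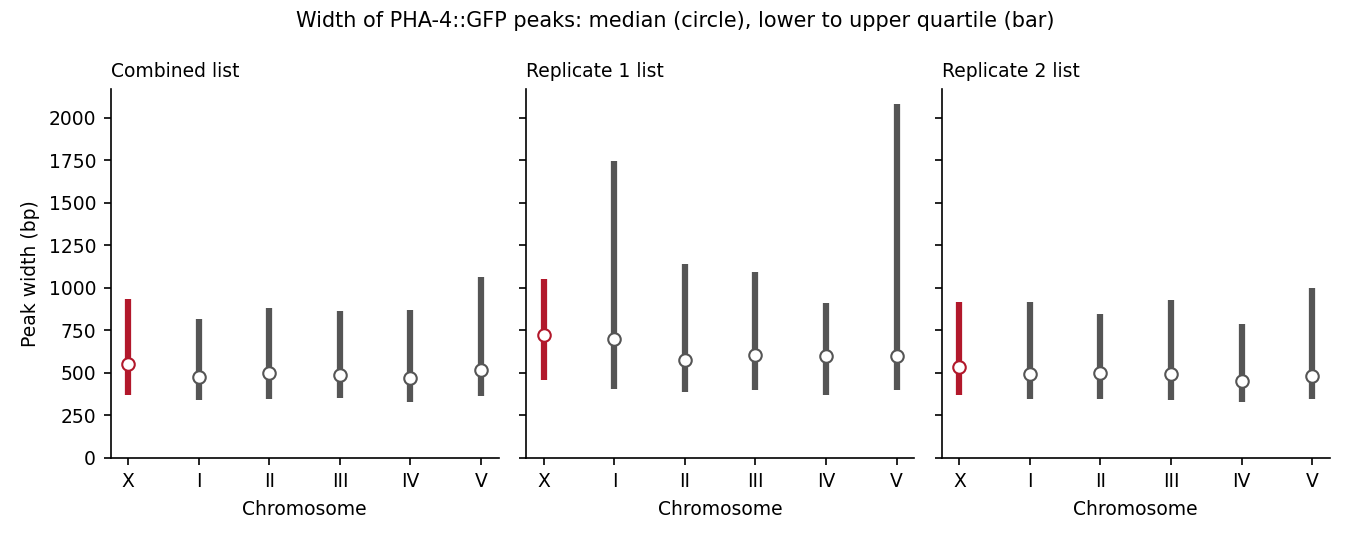
Width in bp of the peaks on X (red) and on each autosome (grey) in the combined, replicate 1 and replicate 2 lists, with the median as a circle and the lower to upper quartile as a bar. The X median, at 550, 721 and 535 bp, is the highest of the 6 chromosomes in each panel, while the upper quartile is not.

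The 5 widest X peaks were all among its 20 strongest: X 3817120 to 3822626 (5507 bp), X 15606137 to 15611465 (5329 bp), X 2968255 to 2972994 (4740 bp), X 8017614 to 8022166 (4553 bp) and X 16940118 to 16944661 (4544 bp). The sixth in width behaved otherwise. X 8473063 to 8477262, named here after its values were seen as well as by its place among unsupported peaks, spanned 4200 bp with a combined q of only 4.43e-05, and neither replicate list held a peak there. The narrowest peaks spanned 1 to 28 bp: X 4007340 (1 bp, q = 0.00962), X 3564041 to 3564060 (20 bp), X 15922916 to 15922935 (20 bp), X 4525696 to 4525716 (21 bp) and X 5102983 to 5103010 (28 bp). All 8 combined X peaks narrower than 50 bp were absent from both replicate lists. Most autosomal peaks of that width were absent too: of 26, replicate 1 held 0 and replicate 2 held 4. Across the 458 X peaks width and strength had a Spearman rho of 0.445, a description over peaks that share samples and a scoring that itself depends on width; the autosomes gave 0.457 to 0.495.

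Neighbouring X peaks were separated by gaps of very unequal length. Over the 457 gaps of the combined list the lower quartile was 3.91 kb, the median 20.0 kb, the upper quartile 52.1 kb and the longest 381 kb, and the medians of the autosomes ran from 17.6 (III) to 32.3 kb (V). Gaps under 1 kb numbered 58 (12.7%), and gaps of at most 5 kb numbered 127 (27.8%). At the other end 49 gaps over 100 kb summed to 7.41 Mb, or 41.9% of X, inside the autosomal range of 26.5% (III) to 60.9% (V). The coefficient of variation (CV) of gap length was 1.32 on X and 1.24 to 1.34 on the autosomes. The shortest gap on X was 203 bp, between X 3830016 and X 3830220.

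The 5 longest gaps of the combined list held few or no replicate peaks, which follows largely from how gaps were defined. Only 3 of 96 replicate 1 peaks and 24 of 361 replicate 2 peaks on X had no combined peak. The longest, 381 kb, runs from X 59403 to X 440392 beside a lone 225 bp peak at the left end of the map (q = 0.000336) that neither replicate list held, and the replicate 2 list begins at X 440439. The next were X 10189169 to 10477197 (288 kb), X 14214817 to 14476516 (262 kb), X 1012883 to 1272531 (260 kb) and X 10773302 to 11030967 (258 kb). No replicate 1 peak reached into any of the 5, and 2 replicate 2 peaks reached into the edges of the X 1012883 gap without lying wholly inside it. The fifth longest gap measured 258 kb on X, against 178 kb (III) to 333 kb (V) on the autosomes. In replicate 1 the longest gap on X, 784 kb, was shorter than that of each autosome (1028 to 1726 kb), and in replicate 2 it was 387 kb, inside the autosomal range of 326 to 595 kb.

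A cluster was taken as 3 or more peaks, each within 5 kb of the next. X had 25 such clusters with 87 peaks, or 19.0% of its combined peaks (15.5% to 22.9%), and the autosomes had 119 clusters with 21.7% of theirs, from 18.1% (V) to 23.8% (II). X clusters were mostly of 3 peaks (16 clusters) or 4 (8 clusters), and a single one had more, with 7 peaks. The autosomes had 14 clusters of 5 peaks and 3 of 6, sizes that X lacked. Under a linking distance of 2 kb X had the lowest share of the 6 chromosomes, 9.39% against 11.5% to 15.7%, and with 10 kb it had 36.0% against 27.0% to 37.7%. The low place of X at 2 kb therefore depended on the distance chosen.

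The 7-peak cluster, X 3817120 to 3834518, has the largest number of linked peaks on the chromosome, though not the largest covered share. It spans 17.4 kb, of which 65.0% is covered. Its left part holds the widest X peak (5507 bp, q = 7.20e-33) and, 359 bp on, the 1588 bp peak (q = 2.29e-18), both held by both replicate lists. The third peak, X 3825750 to 3826637 (888 bp, q = 5.19e-06), was held by replicate 1 (841 bp, q = 1.68e-05) and not by replicate 2. The next 3 peaks, of 557, 1340 and 816 bp, are parted by only 203 and 215 bp and had combined q-values of 0.000200, 0.000263 and 0.00229. Replicate 2 called that stretch as 1 peak, X 3829559 to 3832577 (3019 bp), with a q of 6.93e-11, and replicate 1 called nothing there. The last peak, 620 bp (q = 1.29e-05), was again in both. Within 1 cluster, therefore, peaks differed in which replicate held them.

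The other 4 clusters with most peaks and summed width held 4 peaks each. X 6737435 to 6750648 (13.2 kb) joins the 4098 bp and 1842 bp peaks of the strongest 20 to a 683 bp peak (q = 0.000635) and a 686 bp peak (X 6747701 to 6748386, q = 0.000197), the last of which neither replicate list held. X 1444877 to 1457159 (12.3 kb) has peaks of 2434, 842, 2485 and 832 bp, all held by replicate 2. Replicate 1 also held its strongest, the 2485 bp peak (combined q = 3.09e-17, replicate 1 q = 4.44e-09), and the 842 bp peak (replicate 1 q = 0.00129). X 10765918 to 10773302 spans 7.38 kb, is 73.8% covered, and borders the 258 kb gap on its right, so that a dense group and 1 of the longest empty stretches are adjacent. X 12872023 to 12878149 (6.13 kb) had no replicate 1 peak, and its best q was 1.08e-08.

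X peaks in clusters were wider than those outside, as on the autosomes. Their median width was 686 bp against 509 bp outside, and 635.5 against 454.5 bp on the autosomes. Their median strength was 4.19 against 3.33 outside, and 4.29 against 3.28 on the autosomes. Replicate 2 held 83.9% of clustered X peaks and 70.6% of the others, while replicate 1 held 19.5% of clustered X peaks and 19.1% of the others. On the autosomes replicate 2 held 74.4% of clustered peaks and 66.1% of the others, and replicate 1 held 18.6% of clustered peaks and 13.3% of the others.

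In the combined list the widest X peaks had a close neighbour about as often as other X peaks. The difference between them lay below the autosomal range in the combined and replicate 2 lists, which share samples, and inside it in replicate 1. No interval was put on these differences, and the comparison was added after the data were seen. Of the 114 combined X peaks in the upper quartile of width, 53 (46.5%) had another peak within 5 kb, against 164 of the other 344 (47.7%), a difference of −1.18 percentage points. On the autosomes the same difference ran from 11.2 (I) to 25.4 points (III). In replicate 2 it was 7.56 points on X and 11.95 (V) to 25.6 points (IV) on the autosomes. In replicate 1 the upper quartile held 24 X peaks and 6 (I) to 19 (IV) peaks on single autosomes. There the difference was 15.3 points on X, inside the autosomal range of −4.55 to 34.1 points. The median distance from a peak of the upper quartile to its nearest neighbour was 5.96 kb on X and 1.67 (III) to 3.44 kb (I) on the autosomes in the combined list. In the replicate lists X lay inside the autosomal range of this distance, with 12.4 kb (1.32 to 204 kb on the autosomes) in replicate 1 and 5.70 kb (1.24 to 11.4 kb on the autosomes) in replicate 2.

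**Figure D3:**
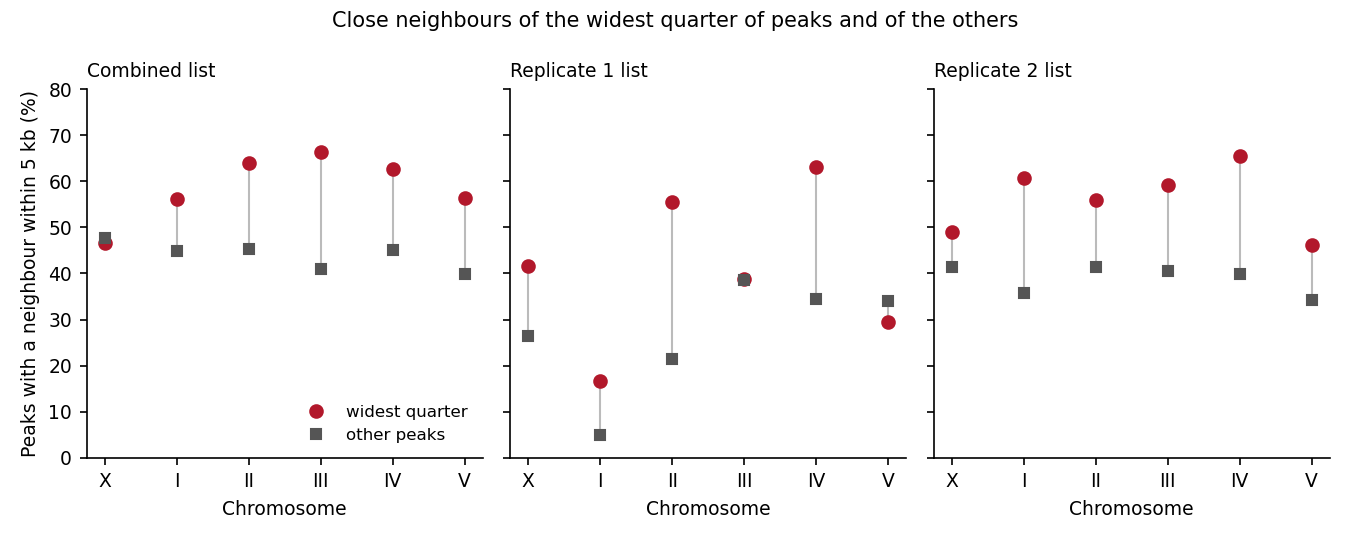
Percentage of peaks with another peak within 5 kb, for peaks in the upper quartile of width (red circles) and the other peaks (grey squares) of X and each autosome, in the combined, replicate 1 and replicate 2 lists. In the combined panel the X symbols nearly coincide, at 46.5% and 47.7%, while the red circle is the higher on all 5 autosomes.

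In the combined list the same held when peaks were divided by strength in place of width. Of the combined X peaks in the upper quartile of strength 48.2% had a neighbour within 5 kb, against 47.1% of the rest, a difference of 1.15 points, while the autosomes gave 9.83 (I) to 21.2 points (IV). Replicate 2 gave 6.08 points on X and 7.56 (II) to 22.7 points (I) on the autosomes. In replicate 1 X gave 15.3 points, above the autosomes (−10.0 on I to 14.9 points on III), so the 3 lists did not place X alike. The upper quartile of replicate 1 held only 24 peaks on X and 6 (I) to 19 (IV) on single autosomes, so its placing of X rests on few peaks.

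Along the chromosome, peak number ran from 11 to 45 in whole 1 Mb windows, and the lists shared the fullest and emptiest stretches in part. The fullest of the 17 whole windows was 6 to 7 Mb with 45 combined peaks, 7 replicate 1 peaks and 34 replicate 2 peaks. Next came 16 to 17 Mb with 41 combined, 11 replicate 1 and 29 replicate 2 peaks. The windows 4 to 5 Mb and 12 to 13 Mb shared the next place with 34 combined peaks, and they differed in replicate support, with 10 replicate 1 and 30 replicate 2 peaks in the first and 7 and 21 in the second. The emptiest were 0 to 1 Mb with 11 combined, 1 replicate 1 and 7 replicate 2 peaks, 10 to 11 Mb with 12, 3 and 12, and 7 to 8 Mb with 18, 3 and 17. The fullest and one of the emptiest windows are thus side by side at 6 to 8 Mb.

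The median window held 24 combined peaks on X and 24 on the autosomes, where windows ran from 6 to 51. The CV of window counts was 0.359 on X and 0.320 (III) to 0.481 (V) on the autosomes. In the replicate lists it was lowest on X, at 0.516 against 0.646 to 0.820 in replicate 1 and 0.342 against 0.352 (IV) or more in replicate 2. Over the 17 windows the counts of replicate 1 and replicate 2 had a Spearman rho of 0.690, a description over windows that share the same libraries. Counted in 5 equal parts of the chromosome from the left, X had 13.5%, 26.2%, 16.8%, 19.7% and 23.8% of its combined peaks, and the autosomes together had 14.8%, 20.9%, 23.9%, 24.4% and 16.0%. The central of 3 equal parts held 33.2% of combined X peaks, against 38.7% (III) to 48.6% (V) on the autosomes. X was also below each autosome in this share in replicate 1, with 22.9% against 29.9% or more, and in replicate 2, with 34.6% against 40.9% or more. The 3 lists share samples, and in each the interval of X overlapped that of the nearest autosome. These were 28.9% to 37.7% on X and 33.9% to 43.6% on III (combined), and 15.0% to 32.6% on X and 20.0% to 41.4% on IV (replicate 1). In replicate 2 they were 29.7% to 39.8% on X and 35.5% to 46.5% on III. The interval of V lay above that of X in each list. Of the 5 parts, the middle one was the poorest of X in replicate 1 alone, with 9 peaks against 13 to 30 in the other parts. In the combined and replicate 2 lists the leftmost part was poorest, with 62 and 48 peaks.

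**Figure D4:**
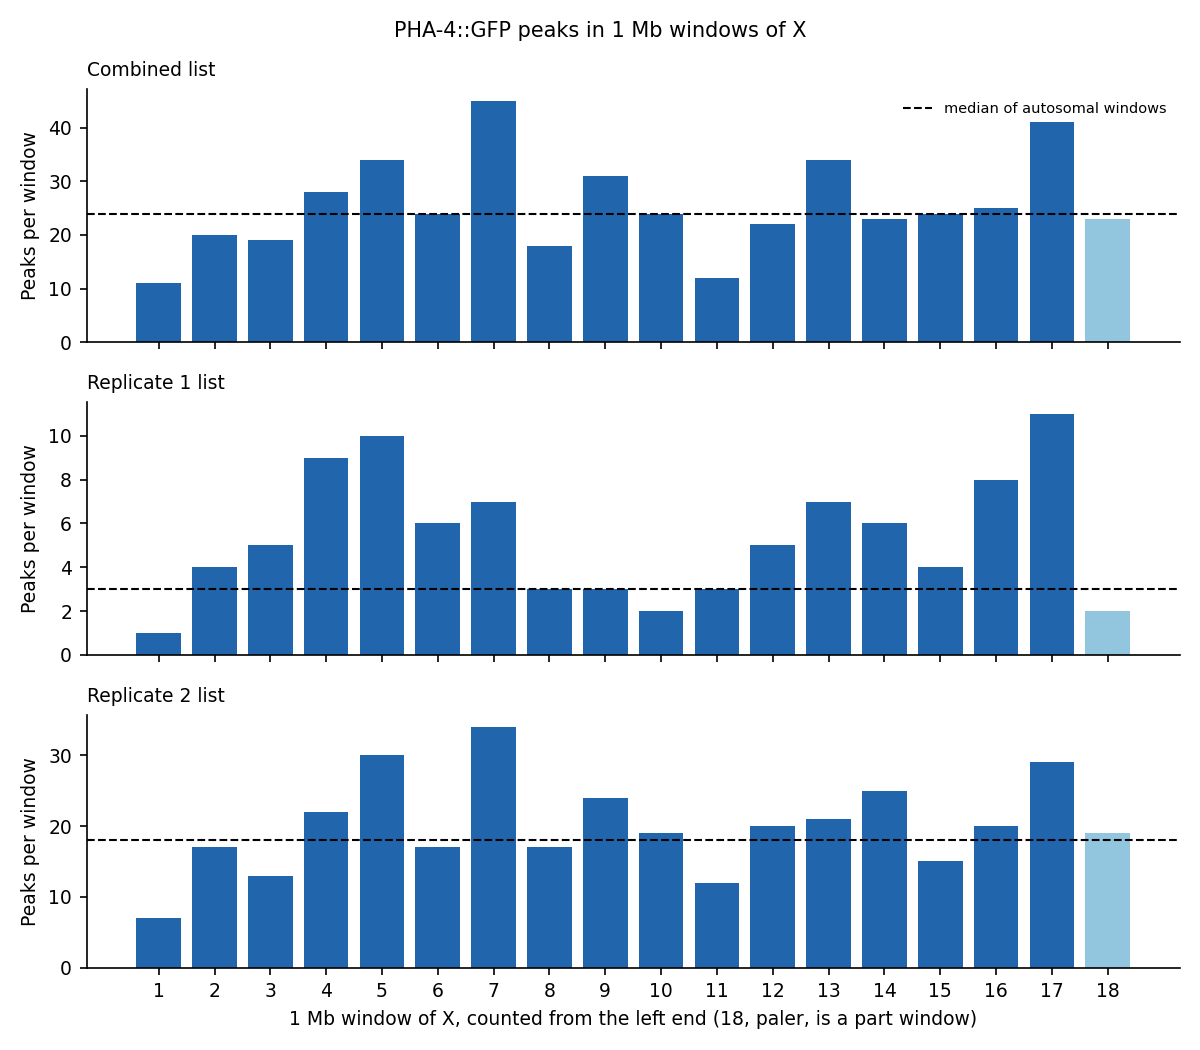
Number of PHA-4::GFP peaks in each 1 Mb window of X from the left end, for the combined, replicate 1 and replicate 2 lists, with the median of autosomal windows of the same list as a dashed line. The seventh window (45 combined peaks) and the seventeenth (41) are the fullest, and the first (11) and eleventh (12) the emptiest. The paler last bar is a window cut short by the last peak.

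Replicate support for X peaks came mostly from replicate 2, whose list is the longer. Of the 458 combined X peaks, replicate 1 held 88 (19.2%, 15.7% to 23.1%), against 15.4% of all combined peaks and 14.5% of autosomal ones. Replicate 2 held 335 (73.1%, 68.8% to 77.2%), against 68.9% of all and 67.9% of autosomal peaks. Both held 75 (16.4%, 13.1% to 20.1%), against 12.9% of all and 12.1% of autosomal peaks, and neither held 110 (24.0%, 20.2% to 28.2%), against 28.6% of all and 29.7% of autosomal peaks. Part of that distance from the autosomes came with chromosome I, which had 26 peaks in replicate 1. Without I the autosomal shares were 16.7% for replicate 1, 71.9% for replicate 2, 14.0% for both and 25.4% for neither, all inside the X intervals. X peaks held by both lists had a median width of 1186 bp, those of replicate 2 alone 494 bp and those of neither 450.5 bp.

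Within classes of combined rank the X and autosomal intervals lay apart in a single class, for replicate 1. In ranks 101 to 250 replicate 1 held 30 of 38 X peaks (78.9%, 62.7% to 90.4%) and 53 of 112 autosomal peaks (47.3%, 37.8% to 57.0%), or 51.5% without chromosome I. In ranks 51 to 100 it held 4 of 4 X peaks and 32 of 46 autosomal peaks. The intervals of X and the autosomes overlapped in that class and in the other 6 for replicate 1, for example 19 of 43 X peaks (44.2%) against 74 of 207 autosomal peaks (35.7%) in ranks 251 to 500. Replicate 2 held all X peaks and all but 1 of the autosomal peaks down to rank 500. In the last class it held 30 of 84 X peaks (35.7%), against 27.3% of autosomal peaks, or 33.2% without chromosome I. In ranks 101 to 250 the median width was 1013.5 bp on X and 1282 bp on the autosomes, and a relation to width was not tested. By width, replicate 1 held 25 of 37 X peaks from 2000 bp up to 5000 bp (67.6%) and 60 of 154 autosomal ones (39.0%). From 1000 bp up to 2000 bp it held 31.9% on X and 25.1% on the autosomes, and from 500 bp up to 1000 bp 19.0% and 13.6%. From 200 bp up to 500 bp the order was the other way, with 5.82% on X and 7.39% on the autosomes. No interval was put on these shares by width, and chromosome I was not left out of them.

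**Figure D5:**
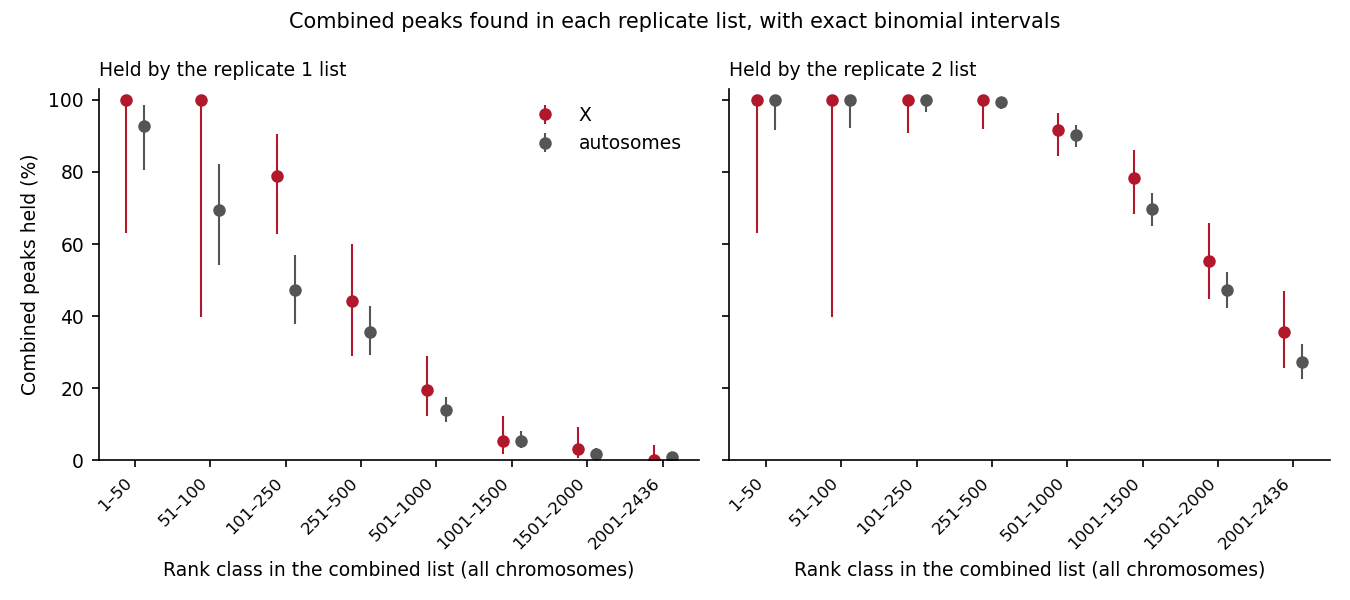
Percentage of combined peaks on X (red) and on the autosomes (grey) that the replicate 1 list (left) and the replicate 2 list (right) held, by class of rank in the combined list, with 95% exact binomial intervals. The X and autosomal intervals are apart in ranks 101 to 250 for replicate 1 (78.9% and 47.3%) and overlap in the other classes.

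Of the 96 replicate 1 peaks on X, 79 (82.3%) overlapped a replicate 2 peak, as did 266 of 322 autosomal ones (82.6%). In the other direction 76 of 361 replicate 2 X peaks (21.1%) overlapped a replicate 1 peak, against 16.6% on the autosomes and 18.1% without chromosome I. These shares differ because the lists differ in length. Matched X peaks lay close together, with a median distance between midpoints of 144.5 bp on X and 131 bp on the autosomes. In 64 of the 79 X pairs (81.0%) the replicate 1 peak was the narrower, and in 46 (58.2%) it lay wholly inside the replicate 2 peak. Over these 79 pairs the strengths in both replicates had a Spearman rho of 0.252, against 0.339 (IV) to 0.650 (I) on single autosomes, and the widths had a rho of 0.662, against 0.630 to 0.857. These are descriptions over peaks from shared libraries.

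Some X peaks were found in a single replicate list. The strongest replicate 1 peaks on X without a replicate 2 peak were X 3825797 to 3826637 (q = 1.68e-05, rank 113), X 12187543 to 12187928 (q = 0.000307), X 10187888 to 10188831 (q = 0.00114), X 14792050 to 14792719 (q = 0.00122) and X 16634690 to 16634994 (q = 0.00126). All 5 recurred in the combined list. The third of them ends just short of the 288 kb gap. The strongest replicate 2 peaks on X without a replicate 1 peak were X 17063366 to 17065436 (2071 bp, q = 3.56e-16, rank 79), X 9850139 to 9852261 (2123 bp, q = 9.13e-16), X 6644835 to 6645399 (565 bp, q = 1.56e-14), X 8036003 to 8036896 (894 bp, q = 1.72e-12) and X 8069203 to 8069695 (493 bp, q = 1.08e-11). They were in the combined list at ranks 124 to 208. Few replicate peaks had no combined peak, 3 of 96 on X and 7 of 322 on the autosomes in replicate 1, and 24 of 361 on X and 99 of 1473 on the autosomes in replicate 2.

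The 110 combined X peaks that neither replicate held were weak, with a median strength of 2.36 and a highest of 4.35. The 5 strongest were the 4200 bp peak X 8473063 to 8477262 (q = 4.43e-05), X 1909412 to 1909748 (337 bp, q = 0.000123), X 16082018 to 16082289 (272 bp, q = 0.000147), X 617661 to 618111 (451 bp, q = 0.000161) and X 6747701 to 6748386 (686 bp, q = 0.000197). Their ranks in the combined list ran from 878 to 1103 of 2436. The first of them lay 2.39 kb from its nearest neighbour. With combined q-values of at most 0.001, 281 X peaks were left, of which neither replicate held 17 (6.05%), against 9.66% of the autosomal peaks so chosen.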

How the data were processed

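The authors deposited 3 peak lists for 2 biological replicates: replicate 1, replicate 2 and combined. The file headers name PeakSeq as the peak caller and WormBase WS190 as the build. The deposited value of each peak is a q-value, which PeakSeq derives from ChIP and input reads, and every one lay under 0.01. The sources used here do not give the PeakSeq version, the aligner, read filters, the merging of samples or the input behind the replicate 1 and combined lists. Read depth is unknown. The combined list is not independent of the replicate lists, and that cultures were separate rests on the labels alone.

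Widths, gaps, clusters, windows and overlaps (at least 1 bp) came from scripts in Python 3.11.15 (pandas 2.3.3, numpy 2.4.6, scipy 1.17.1, matplotlib 3.10.9). These were tested on simulated data, and 7 of 7 checks returned the planted answer. Chromosome length was base 1 to the last peak end over the 3 lists, since WS190 lengths were not used here. Ties in rank went by width, then position. Genes and sequences at the peaks were not analysed here, and no test was run.

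Named regions are the 20 strongest, 5 widest and 5 narrowest combined X peaks, the 5 clusters with most peaks (ties by summed width), the 5 longest gaps, the 5 strongest X peaks found in 1 replicate and missing from the other, the 5 strongest that neither holds, and the 3 fullest and 3 emptiest windows. The members and lists were chosen with earlier results of these data known. The comparison of close neighbours by width and strength, and the autosomal background without chromosome I, were added after the data were seen. The alternatives were another overlap rule, a stricter q, a width minimum, other cluster, window and gap definitions, and leaving out each replicate in turn.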

Additional observations from a re-analysis of the deposited data

How the results depend on the processing

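Of 62 values under alternative settings, 32 moved by less than their counting error (counts and variation: within 1.5 times) and 30 moved by more. These values cannot be negative, so a change of sign was not possible. With midpoints within 200 bp as the rule for shared, replicate 1 held 13.1%, replicate 2 65.5%, both 9.61% and neither 31.0% of combined X peaks. With q of at most 0.001 these shares were 30.2%, 90.4%, 26.7% and 6.05%, the median width was 656 bp, the median strength 4.79, the median gap 38.6 kb, the number of clusters 13 and the density 15.9 peaks per Mb. Under the 5 overlap and filter settings run, the main one included, X stayed above the pooled autosomes for replicate 1, replicate 2 and both. For neither, X stayed below them. The pooled autosomes include chromosome I, which was not left out under the alternative settings. Single autosomes were not compared under the alternative settings. Under the main setting replicate 2 held 73.15% of peaks on III and 73.14% on X. Clusters numbered 13 with 9.39% of X peaks at 2 kb, 46 with 36.0% at 10 kb, and 90 with 47.4% when 2 peaks sufficed. Without chromosome I the X share of all peaks was 22.4%.

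Leaving out a replicate means using the other replicate's list. Between these lists the X share of all peaks ran from 19.7% to 23.0%, the median width from 535 to 721 bp, the median strength from 3.26 to 3.43, the median gap from 26.8 to 120 kb, the share in clusters from 11.5% to 18.3%, the number of clusters from 3 to 20, the density from 5.42 to 20.4 peaks per Mb, the CV of window counts from 0.342 to 0.516 and the share in the central of 3 equal parts from 22.9% to 34.6%. The cause of these shifts was not tested, and strength depends on read depth, which is unknown. The replicate 1 list is the one with 96 X peaks. No paired analysis was possible because each replicate has 1 list and no groups are compared.

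Depth is unknown, so the absence of a peak from a list is not absence of binding. Intervals cover counting error over peaks and not variation between cultures.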
